A study of Mus musculus with 14 samples.

Results

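The 10 genes described here, S100a3, S100a4, S100a6, S100a8, S100a9, S100a10, S100a11, S100a13, S100a14 and S100a16, encode S100 calcium-binding proteins. They were taken by symbol from the RNA count tables, which list 47729 genes, and all 10 were found there. The same genes were then followed in the chromatin accessibility (ATAC-seq) and 10x single-cell files. Another 8 S100 genes (S100a1, S100a2, S100a5, S100a7a, S100a7l2, S100b, S100g and S100z) were listed beside them for comparison.

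S100 proteins are small cytoplasmic proteins that carry a pair of EF-hand loops, usually act as dimers, and expose a hydrophobic patch on binding calcium that lets them grip partner proteins such as annexins. Some are also released from cells and act outside them on receptors such as RAGE (Ager) and TLR4. Most of the genes lie in the epidermal differentiation complex, a gene cluster that also holds loricrin, filaggrin and the small proline-rich proteins of the cornified envelope. In skin, S100a8 and S100a9 are known as genes switched on in wounded or inflamed keratinocytes and as the main cytoplasmic proteins of neutrophils, S100a3 as a protein of the hair cuticle, and S100a10 and S100a11 as partners of annexins.

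The study compared skin epithelial stem cells of mice aged 2 months (young) and 24 months (aged). Back skin was digested with trypsin and cells were sorted by flow cytometry as lineage-negative with high integrin alpha-6. CD34+ Sca1- cells of that gate are called hair follicle stem cells (HFSC) and CD34- Sca1+ cells epidermal stem cells (EpdSC). All groups were wild type and untreated as far as the labels say; the mice were females of a strain written C57B8 in one label field and C57B6 in another. RNA-seq had 2 libraries in each of the 4 groups, ATAC-seq 1 library in each, and 10x single-cell RNA-seq 1 library of lineage-negative integrin alpha-6+ epithelium per age. The labels do not say that replicate libraries came from separate mice, so the p-values reflect the spread of these libraries alone, which may be technical.

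RNA libraries held 25126808 to 35905505 counts. RNA levels are given in CPM, counts scaled to the library total after a trimmed-mean correction for composition, and are compared for 1 gene between libraries, not between genes. The sort markers separated the populations: Cd34 averaged 1761 and 1141 CPM in young and aged HFSC against 1.20 and 0.463 CPM in young and aged EpdSC. Ly6a, the gene of Sca1, averaged 0.514 and 1.74 CPM in young and aged HFSC and 175 and 162 CPM in young and aged EpdSC. Summed markers of neutrophils were at 1.10 to 2.77 CPM over the 8 libraries.

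The 10 members lie on mouse chromosome 3 (build GRCm38.p6, the same coordinates as mm10) in 2 runs. S100a13 (chr3:90514233-90524581), S100a14 (chr3:90526849-90528837), S100a16 (chr3:90537254-90543151), S100a3 (chr3:90560356-90602706), S100a4 (chr3:90603770-90606045), S100a6 (chr3:90612894-90614414), S100a8 (chr3:90669071-90670034) and S100a9 (chr3:90692630-90695721) form the first run. S100a11 (chr3:93520496-93526288) and S100a10 (chr3:93555117-93564645) form the second. The annotated span of S100a3 encloses S100a2, and that of S100a13 overlaps S100a1 on the opposite strand by 98 bases. The labels do not state whether counting used strand, so reads in that overlap cannot be told apart.

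The promoters of S100a4, S100a6 and S100a11 are shown because these genes carried opposite differences between the populations: the first pair was higher in HFSC and S100a11 in EpdSC. Each line gives the 250 bases upstream of the RefSeq start site on the + strand, 5′ to 3′, at chr3:90603520-90603769, chr3:90612644-90612893 and chr3:93520246-93520495. Capitals mark matches to the motifs TATAAA for TATA-binding protein, CCAAT for NF-Y, GGGCGG for Sp1, TGANTCA for AP-1, TTGCNNAA for C/EBP and TAATTA for homeodomain factors, each searched on both strands.
S100a4: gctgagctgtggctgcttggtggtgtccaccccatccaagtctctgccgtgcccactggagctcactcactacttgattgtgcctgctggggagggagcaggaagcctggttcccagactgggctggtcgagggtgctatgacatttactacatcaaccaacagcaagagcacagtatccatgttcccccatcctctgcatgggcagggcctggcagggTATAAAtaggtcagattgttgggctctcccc
S100a6: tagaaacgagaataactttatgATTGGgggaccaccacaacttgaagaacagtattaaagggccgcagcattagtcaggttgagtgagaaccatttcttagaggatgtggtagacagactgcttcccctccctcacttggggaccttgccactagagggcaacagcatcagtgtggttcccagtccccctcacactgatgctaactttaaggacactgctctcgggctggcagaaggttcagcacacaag
S100a11: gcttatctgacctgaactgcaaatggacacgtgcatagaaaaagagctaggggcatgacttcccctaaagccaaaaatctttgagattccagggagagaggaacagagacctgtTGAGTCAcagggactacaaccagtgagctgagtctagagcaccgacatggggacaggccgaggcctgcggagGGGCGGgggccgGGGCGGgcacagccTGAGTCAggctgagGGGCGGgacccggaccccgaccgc

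S100a4 held 1 TATAAA from base -31 to -26 before the start, a sequence found in 12.4% of 32851 RefSeq promoters of this length. S100a6 held 1 CCAAT on the minus strand at -228 to -224, found in 33.8% of promoters. S100a11 held GGGCGG at -64, -52 and -24, found at least once in 32.7% of promoters, and TGAGTCA at -136 and -38, a form of TGANTCA found in 6.75%. Among the members whose promoters are in the table, S100a8 also held TATAAA, at -30 to -25, and S100a9 held TTGCTTAA at -236 and GGGCGG at -223. The start sites used for S100a13, S100a16 and S100a3 held none of the 6 motifs. A match describes letters only, and binding was not measured. The C plus G content of the S100a4 promoter was 57.2%, beside a median of 52.4% over all promoters, and the other printed promoters also lay between the quartiles of 45.2% and 61.2%.

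The populations differed in most of the measured members. Against young HFSC, 7 of the 8 members that passed the low-count filter differed in young EpdSC at an adjusted p under 0.05 (edgeR quasi-likelihood test, Benjamini-Hochberg adjustment over 21464 genes): S100a3, S100a4 and S100a6 were lower in EpdSC, and S100a11, S100a13, S100a14 and S100a16 were higher. Over all genes tested, 26.1% passed in either direction, 13.0% higher and 13.1% lower. In aged mice 6 of the 8 passed, 3 in each direction, where 24.1% of all genes did (12.2% higher and 11.9% lower). The median log2 difference of the tested members was 0.31 in young and 0.41 in aged mice, beside -0.06 and -0.09 over all genes. S100a8 and S100a9, with 0 to 18 counts per library, were not tested.

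**Figure D1:**
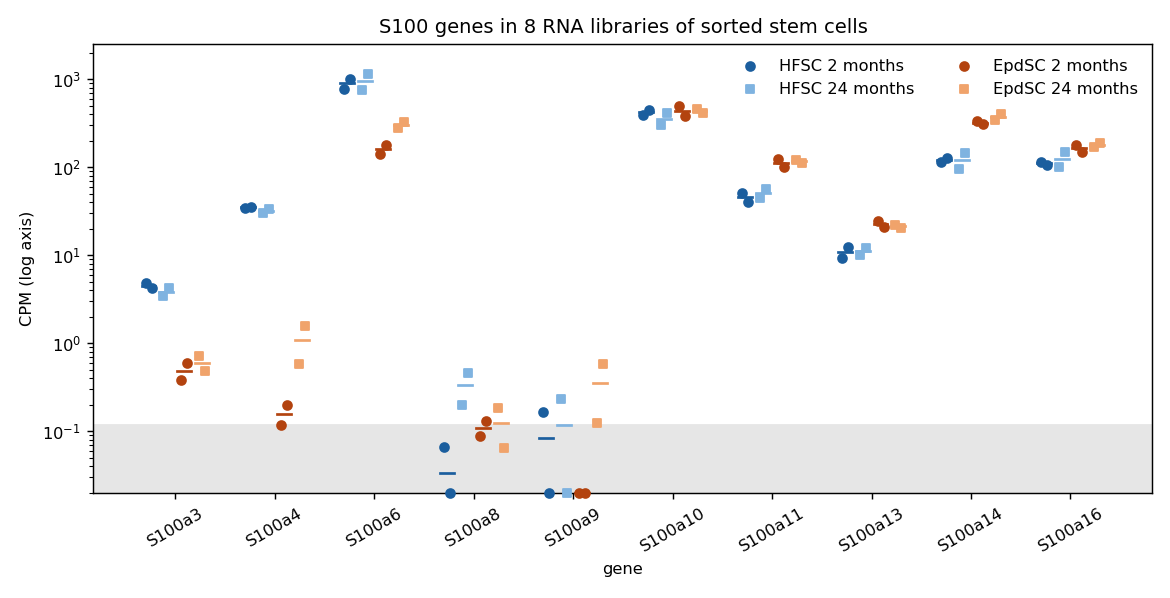
Level of each of the 10 S100 genes in the 8 RNA libraries, in CPM on a log axis, with 1 point per library grouped by population and age. Libraries with 0 counts are drawn at the lower edge, and the grey band marks the range of up to 3 counts per library; S100a4, S100a6 and S100a3 sit higher in HFSC, S100a11, S100a13 and S100a14 higher in EpdSC, and S100a8 and S100a9 lie near the band in every group.

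S100a4, also called metastasin, binds non-muscle myosin heavy chain and promotes cell motility; it is widely used as a marker of fibroblasts. HFSC libraries held 34.6 and 35.1 CPM at 2 months and 30.4 and 33.4 CPM at 24 months. EpdSC libraries held 0.118 and 0.197 CPM at 2 months and 0.587 and 1.56 CPM at 24 months. All 4 HFSC libraries lay above all 4 EpdSC libraries, which held only 4, 6, 19 and 48 counts. The difference was -7.77 on the log2 scale in young mice (SE 0.44, edgeR adjusted p = 1.9e-07) and -4.89 in aged mice (SE 0.35, adjusted p = 1.2e-06), that is 218-fold and 29.7-fold lower in EpdSC. S100a4 met the low-count filter in its HFSC and aged EpdSC libraries, but not in young EpdSC, with 4 and 6 counts. In bulk RNA a smaller number of expressing cells and less RNA per cell cannot be told apart.

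Markers of other cell types that are known to hold S100a4 were read in the same libraries. The 6 fibroblast markers summed to 52.3 to 84.5 CPM in HFSC and 1.24 to 5.92 CPM in EpdSC. In HFSC most of this was Col1a2 (52.6 CPM at 2 months), followed by Col1a1 (13.3 and 4.21 CPM at 2 and 24 months). Dcn and Col3a1, also on the list, averaged 0.524 and 0.324 CPM in young and 1.05 and 1.27 CPM in aged HFSC. Lum and Pdgfra, the other listed markers, are not reported here singly. Summed Langerhans and myeloid markers moved the other way, at 4.06 to 12.1 CPM in HFSC and 16.4 to 30.4 CPM in EpdSC. The 6 pericyte and smooth muscle markers, mostly Cspg4, summed to 647 to 777 CPM in HFSC and 91.4 to 122 CPM in EpdSC. The part of these cells in the S100a4 level was not tested in bulk RNA, and the single-cell values are given further on.

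S100a6, calcyclin, is a calcium-dependent partner of annexins and of ubiquitin-ligase adaptors and is raised in many dividing cells. Its HFSC levels were 773 and 1009 CPM at 2 months and 747 and 1144 CPM at 24 months, and its EpdSC levels 141 and 179 CPM at 2 months and 278 and 324 CPM at 24 months. Every HFSC library was above every EpdSC library, and the aged EpdSC libraries lay between the young EpdSC and the HFSC libraries. The log2 difference between EpdSC and HFSC was -2.48 in young (SE 0.23, edgeR adjusted p = 8.5e-06) and -1.65 in aged mice (SE 0.22, adjusted p = 0.000182).

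S100a3 is a cysteine-rich S100 protein of the hair cuticle that is modified by the deiminase Padi3. In HFSC it reached 4.79 and 4.21 CPM at 2 months and 3.42 and 4.28 CPM at 24 months. In EpdSC it was at 0.382 and 0.592 CPM at 2 months and 0.711 and 0.488 CPM at 24 months. The populations did not overlap, and within each population the ages did. The log2 difference was -3.20 in young (SE 0.45, edgeR adjusted p = 0.000216) and -2.67 in aged mice (SE 0.43, adjusted p = 0.000766).

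S100a14, found in stratified and simple epithelia, was higher in EpdSC. HFSC libraries held 114 and 127 CPM at 2 months and 94.6 and 145 CPM at 24 months, and EpdSC libraries 332 and 305 CPM at 2 months and 340 and 396 CPM at 24 months. The highest HFSC library was thus below the lowest EpdSC library. The log2 difference was 1.41 in young (SE 0.19, edgeR adjusted p = 0.000199) and 1.62 in aged mice (SE 0.19, adjusted p = 7.8e-05). S100a11, calgizzarin, binds annexin A1 and is a component of the cornified envelope. Its HFSC levels were 50.3 and 40.1 CPM at 2 months and 44.7 and 56.8 CPM at 24 months, beside EpdSC levels of 123 and 99.8 CPM at 2 months and 121 and 113 CPM at 24 months. EpdSC again exceeded HFSC without overlap, by 1.30 in young (SE 0.18, edgeR adjusted p = 0.00019) and 1.20 in aged mice (SE 0.18, adjusted p = 0.000372) on the log2 scale.

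S100a13 takes part in the release of FGF1 and interleukin 1 alpha, proteins that leave cells without a signal peptide. HFSC libraries held 9.22 and 12.3 CPM at 2 months and 10.1 and 12.1 CPM at 24 months, and EpdSC libraries 24.2 and 20.7 CPM at 2 months and 22.0 and 20.4 CPM at 24 months. Every EpdSC library lay above every HFSC library, with log2 differences of 1.06 in young (SE 0.21, edgeR adjusted p = 0.00286) and 0.93 in aged mice (SE 0.21, adjusted p = 0.0065). Without aged HFSC replicate 1 the aged S100a13 call was lost (0.82, edgeR adjusted p = 0.0545). S100a16, a broadly expressed S100 protein with a single working calcium-binding loop, was in HFSC at 115 and 107 CPM at 2 months and 100.3 and 149 CPM at 24 months. In EpdSC it was at 178 and 148 CPM at 2 months and 170 and 189 CPM at 24 months, so that the highest HFSC library reached the lowest EpdSC library. Its difference was 0.56 in young (SE 0.19, edgeR adjusted p = 0.0458) and 0.53 in aged mice (SE 0.19, adjusted p = 0.0619). The young call for S100a16 was lost without the composition factor (0.49, adjusted p = 0.0555) and when any 1 of 4 libraries was left out: young HFSC replicate 1 or 2, young EpdSC replicate 1 or aged EpdSC replicate 1 (0.43 to 0.64). The aged difference was called with DESeq2 (adjusted p = 0.0339), with no low-count filter (0.0141), and in edgeR without aged HFSC replicate 2 (0.90, adjusted p = 0.00479), young HFSC replicate 1 (0.57) or young EpdSC replicate 2 (0.57).

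S100a10, or p11, cannot bind calcium, sits on the membrane in a complex with annexin A2 and binds plasminogen and ion channels. HFSC libraries held 390 and 446 CPM at 2 months and 300.1 and 411 CPM at 24 months, and EpdSC libraries 488 and 380 CPM at 2 months and 461 and 411 CPM at 24 months. The groups overlapped. The difference between the populations was 0.05 on the log2 scale in young mice (95% interval -0.35 to 0.46, edgeR adjusted p = 0.879) and 0.29 in aged mice (-0.11 to 0.70, adjusted p = 0.296). Without aged HFSC replicate 2 the aged difference was 0.60 (adjusted p = 0.0486).

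S100a8 and S100a9 pair to form calprotectin, which binds zinc and manganese and signals through TLR4 and RAGE. S100a8 had 2 and 0 counts at 2 months and 6 and 14 counts at 24 months in the HFSC libraries, and 3 and 4 counts at 2 months and 6 and 2 counts at 24 months in the EpdSC libraries. S100a9 had 5 and 0 counts at 2 months and 7 and 0 counts at 24 months in HFSC. In EpdSC it had 0 counts in both libraries at 2 months and 4 and 18 counts at 24 months. The highest levels, S100a9 at 0.586 CPM in aged EpdSC replicate 2 and S100a8 at 0.461 CPM in aged HFSC replicate 2, each came from 1 library. No age or population difference was detectable at this depth.

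Of the 8 other listed S100 genes, 7 were in the table and 3 passed the low-count filter. S100a1, a regulator of calcium handling in muscle, was at 34.3 to 68.1 CPM in HFSC and 7.91 to 11.4 CPM in EpdSC and was lower in EpdSC by 2.40 in young and 2.27 in aged mice on the log2 scale (edgeR adjusted p = 5.3e-05 in young). S100a7a, the mouse koebnerisin and psoriasin relative, was at 1.61 to 3.16 CPM in HFSC and 0.353 to 0.619 CPM in EpdSC, a difference of -2.44 in young (edgeR adjusted p = 0.00801) and -1.88 in aged mice (adjusted p = 0.0301). S100b did not pass (-1.60 in young mice, edgeR adjusted p = 0.230). S100a2, S100a5, S100g and S100z had at most 9 counts in any library.

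**Figure D2:**
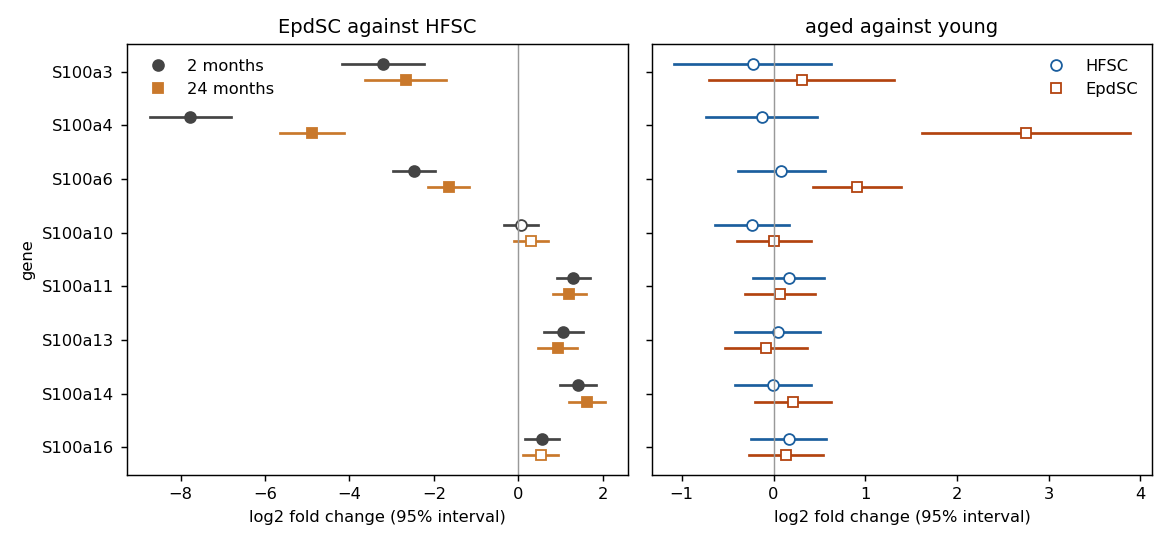
Log2 differences of the tested S100 genes in the population comparisons (EpdSC minus HFSC, young and aged) and the age comparisons (aged minus young, HFSC and EpdSC), with 95% intervals from the edgeR fit. Filled symbols mark an adjusted p under 0.05; S100a4, S100a6 and S100a3 lie on the HFSC side at both ages, S100a11, S100a13 and S100a14 on the EpdSC side, and no age comparison has a filled member.

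In the age comparison of HFSC none of the 8 tested members passed with edgeR or DESeq2, none had an unadjusted p under 0.05, and 0.368% of all genes were called by edgeR. The member differences in HFSC ran from -0.23 (S100a10 and S100a3) to 0.17 (S100a11 and S100a16) on the log2 scale, with a median of 0.02 beside 0.02 over all genes.

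In EpdSC edgeR also called 0 members, where 0.0839% of all genes were called, but S100a4 and S100a6 had an unadjusted p under 0.05. S100a4 was higher in aged EpdSC by 2.75 on the log2 scale (SE 0.52, edgeR adjusted p = 0.156), from 4 and 6 counts in the young to 19 and 48 in the aged libraries. S100a6 was higher by 0.91 (SE 0.22, edgeR adjusted p = 0.348), a 1.88-fold difference. The young and aged EpdSC libraries did not overlap for either gene, nor for S100a14 (0.21, SE 0.19). In HFSC the ages did not overlap for S100a4 either, where the aged libraries were lower. The share of all genes without overlap was not counted, so these statements describe the libraries only. DESeq2 called both S100a4 (2.79, adjusted p = 0.00058) and S100a6 (0.91, adjusted p = 0.0143). The share of all genes that DESeq2 called is not reported here, so these calls have no background beside them. Left without aged EpdSC replicate 1, edgeR called S100a4 at 3.31 (adjusted p = 0.0103).

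Other markers in the same EpdSC libraries were read beside these values. Cd34, the surface marker of the HFSC sort, averaged 1.20 and 0.463 CPM in young and aged EpdSC, lower where S100a4 was higher. Summed fibroblast markers were 1.24 and 3.98 CPM in young and 2.60 and 5.92 CPM in aged EpdSC. Within each age the library with more of them also had more S100a4. Across the ages, the young library with 3.98 CPM had less S100a4 than the aged library with 2.60 CPM. Summed Langerhans and myeloid markers were 30.2 and 30.4 CPM in the young and 16.4 and 17.9 CPM in the aged libraries. The part of these cells in the S100a4 and S100a6 values was not tested.

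The age effects of the populations were compared by an interaction term, for which edgeR called 0.00466% of genes and 0 members. S100a4 and S100a6 had an unadjusted p under 0.05. The effect in EpdSC exceeded that in HFSC by 2.88 for S100a4 (SE 0.59, edgeR adjusted p = 0.251) and by 0.82 for S100a6 (SE 0.31, adjusted p = 0.916). DESeq2 called S100a4 alone (2.92, adjusted p = 0.00261), as did edgeR without aged EpdSC replicate 1 (3.46, adjusted p = 0.0344). The share of all genes that DESeq2 called for the interaction is not reported here. These age comparisons share their aged and young libraries with the population comparisons above.

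Partners of the S100 proteins also differed between the populations. Of 11 genes, the annexins and Ahnak, the giant scaffold held at the membrane by S100a10 and annexin A2, 6 were higher and 1 lower in young EpdSC (median 0.69), and 6 were higher and 2 lower in aged EpdSC (median 0.78). Over all genes 26.1% were called in young and 24.1% in aged mice, with medians of -0.06 and -0.09. Anxa1, the S100a11 partner, averaged 364 CPM in young HFSC and 1284 in young EpdSC (1.82, edgeR adjusted p = 4.2e-05) and 425 and 1393 CPM in aged HFSC and EpdSC. Anxa2, the S100a10 partner, averaged 1077 and 2209 CPM in young HFSC and EpdSC (1.04, edgeR adjusted p = 0.0030), so it was higher in EpdSC while S100a10 did not pass. Anxa6, whose protein organises membrane and cortex, was lower in EpdSC at 18.7 against 119 CPM in young mice (-2.67, edgeR adjusted p = 7.7e-06). None of these genes passed in either age comparison.

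Genes tied to single members gave a mixed picture. Fgf1, the growth factor that leaves cells with S100a13, averaged 178 CPM in young HFSC and 1.81 CPM in young EpdSC (-6.62, edgeR adjusted p = 4.6e-09), the opposite direction to S100a13. Sphk1 (2.89) and Syt1 (3.45), which belong to the same export complex, were higher in young EpdSC, so 2 of the 4 partners rose and 1 fell at both ages. Of 7 tested deiminase and hair cuticle genes, which bear on S100a3, Krt32 (2.28) was higher in young EpdSC and Hoxc13 (-5.85) and Selenbp1 (-1.99) were lower. In aged EpdSC 1 was higher and 3 were lower: the same genes and Padi3 (-4.31, edgeR adjusted p = 0.0431). Padi3 averaged 0.714 CPM in aged HFSC and 0.0326 CPM in aged EpdSC, where 3 counts make 0.0927 CPM in replicate 1. Over all genes 26.1% were called in young and 24.1% in aged mice, which applies to both lists.

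For the receptors of extracellular S100 proteins, 7 genes were tested. In young EpdSC 1 was higher and 1 lower, and in aged EpdSC 1 was lower, where 26.1% and 24.1% of all genes were called in either direction. Tlr4, a receptor of S100a8 and S100a9, averaged 5.43 CPM in young HFSC and 0.495 CPM in young EpdSC (-3.45, edgeR adjusted p = 7.1e-05) and 12.3 and 2.04 CPM in aged HFSC and EpdSC (-2.59, adjusted p = 0.000301). Mcam, another reported S100a8 and S100a9 receptor, was higher in young EpdSC (1.20, edgeR adjusted p = 0.0332). Of 10 genes of TLR4 signalling, 4 were higher and 1 lower in young EpdSC and 5 were higher and 1 lower in aged EpdSC, where 13.0% and 12.2% of all genes were higher and 13.1% and 11.9% lower. The lower gene at both ages was Tirap, the adaptor that brings Myd88 to TLR4 (25.7 CPM in young HFSC, 3.23 in young EpdSC), while Myd88 itself was higher (9.51 and 30.2 CPM). With age Tlr4 differed by 2.03 in EpdSC (edgeR adjusted p = 0.186) and 1.17 in HFSC (adjusted p = 0.267).

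Transcription factors known to act on the epidermal differentiation complex were mostly higher in EpdSC: 9 of 12 rose and 1 fell in young mice (median 1.08), and 8 rose and 1 fell in aged mice (median 1.54), beside 26.1% and 24.1% of all genes called in either direction. Junb averaged 72.4 CPM in young HFSC and 855 CPM in young EpdSC (3.56), Fos 164 and 2290 CPM (3.80) and Grhl3 2.64 and 38.2 CPM (3.87), all called by edgeR. Cebpd went the other way, at 42.0 CPM in young HFSC and 9.36 in young EpdSC (-2.16). Junb was also the one gene of these partner lists called with age, rising in HFSC from 72.4 to 156 CPM (1.11, SE 0.18, edgeR adjusted p = 0.0317).

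Of 16 keratinocyte genes known to accompany S100a8 and S100a9 in stressed epidermis, 11 were tested. In young EpdSC 1 of them, Il1f9, was higher (6.47 against 0.0590 CPM), and 2, Krt17 (155 against 909 CPM) and Krt6a (14.9 against 404 CPM), were lower. In aged EpdSC 2 were higher and 2 lower. Over all genes 26.1% were called in young and 24.1% in aged mice in either direction. None passed with age in either population, where 3 had an unadjusted p under 0.05 in HFSC and 1 in EpdSC. Of the S100 fused-type genes, the large S100-domain proteins of the cornified layer, 5 were tested and none passed in any of the 4 comparisons.

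Each member's pattern over the 8 RNA libraries was set beside 10264 genes with a mean of at least 5 CPM, as a description; the libraries fall into 2 populations, so that high correlations are common. S100a4 was most like Arhgef17 (Pearson r = 0.998), Hip1 (0.998) and Gfra1 (0.996), among 1268 genes with r over 0.9. S100a11 was most like Tgfbr2 (0.998), Anxa1 (0.997) and Usp10 (0.996), and S100a3 most like Ccdc136 (0.998). S100a10, which differed little between the populations, had only 18 genes with r over 0.9, led by Adat2 (0.970).

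Open chromatin was read from the 4 ATAC libraries, with 1 library per population and age and therefore no replicate check. Levels are CPM of the whole library, summed over windows within 1000 bases of the start site, and the intervals cover counting error only. The libraries differed in how much of their signal lay at gene starts: 19.3% and 11.1% in HFSC at 2 and 24 months, and 19.8% and 21.2% in EpdSC. The library of aged HFSC, with 8243611 counts, was also the shallowest (the others had 22933001 to 37322834), and comparisons with it carry both differences.

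At 2-fold or more, 2 of the 10 member promoters were lower in young EpdSC than in young HFSC and none was higher. Over 23373 promoters 18.4% passed in either direction and 7.74% were lower, and the median log2 ratio was -0.16 for the members and 0.05 for all. The S100a4 promoter held 34.3 CPM in young HFSC and 14.9 CPM in young EpdSC, a log2 ratio of -1.20 (95% counting interval -1.36 to -1.05). Aged HFSC and EpdSC held 16.4 and 12.4 CPM there, a ratio of -0.41, which was -1.34 after scaling to the counts at all gene starts. S100a8 was the other, with 38 counts in young HFSC and 17 in young EpdSC (1.45 and 0.455 CPM).

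At the start site used for each gene, the other 8 members differed by less than 2-fold between the young populations. S100a6 was at 15.6 CPM in young HFSC and 17.6 CPM in young EpdSC (log2 ratio 0.17), although its RNA was 5.56-fold higher in HFSC. S100a11 was at 24.2 and 23.2 CPM, S100a10 at 22.5 and 19.2, S100a13 at 16.9 and 20.5, S100a14 at 42.7 and 45.5 and S100a16 at 32.9 and 30.9 CPM in young HFSC and EpdSC. The windows of S100a13 are shared with S100a1, whose RNA had the opposite difference. S100a9 was at 0.917 and 0.777 CPM, low in both as for S100a8. Of the annotated starts of S100a3, the one with the most ATAC signal was used, at 59.2 and 47.1 CPM. Its alternative start at base 90600214, where the difference was larger, was at 33.7 and 15.4 CPM.

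Windows further from the starts differed more. The 1000 bases at chr3:90597501-90598500, within the annotated span of S100a3 and upstream of S100a4, were chosen after their values were seen, as were the other windows named here. The first 500 bases held 23.1 and 11.4 CPM in HFSC at 2 and 24 months and 0.938 and 1.57 CPM in EpdSC. The next 500 bases held 15.6 and 6.31 CPM in HFSC and 1.66 and 2.05 CPM in EpdSC, so HFSC was higher at both ages. The window that holds the S100a4 start itself was at 5.27 CPM in young HFSC and 0.991 in young EpdSC. Downstream of the S100a11 start, the 1000 bases at chr3:93521501-93522500 were at 1.80 and 1.22 CPM per window in young HFSC and 5.95 and 5.63 CPM in young EpdSC, while the promoter differed by -0.06 on the log2 scale. At the second start of S100a16 (base 90541146) the order was turned, with 4.09 CPM in young HFSC and 14.4 in young EpdSC. Over the first gene run, 37 windows reached 4 CPM in some library; 9 were lower and 5 higher in young EpdSC by 2-fold or more, where 19.1% and 25.8% of all such windows were. In the second run, from S100a11 to S100a10, 2 of 16 were lower and 6 higher.

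**Figure D3:**
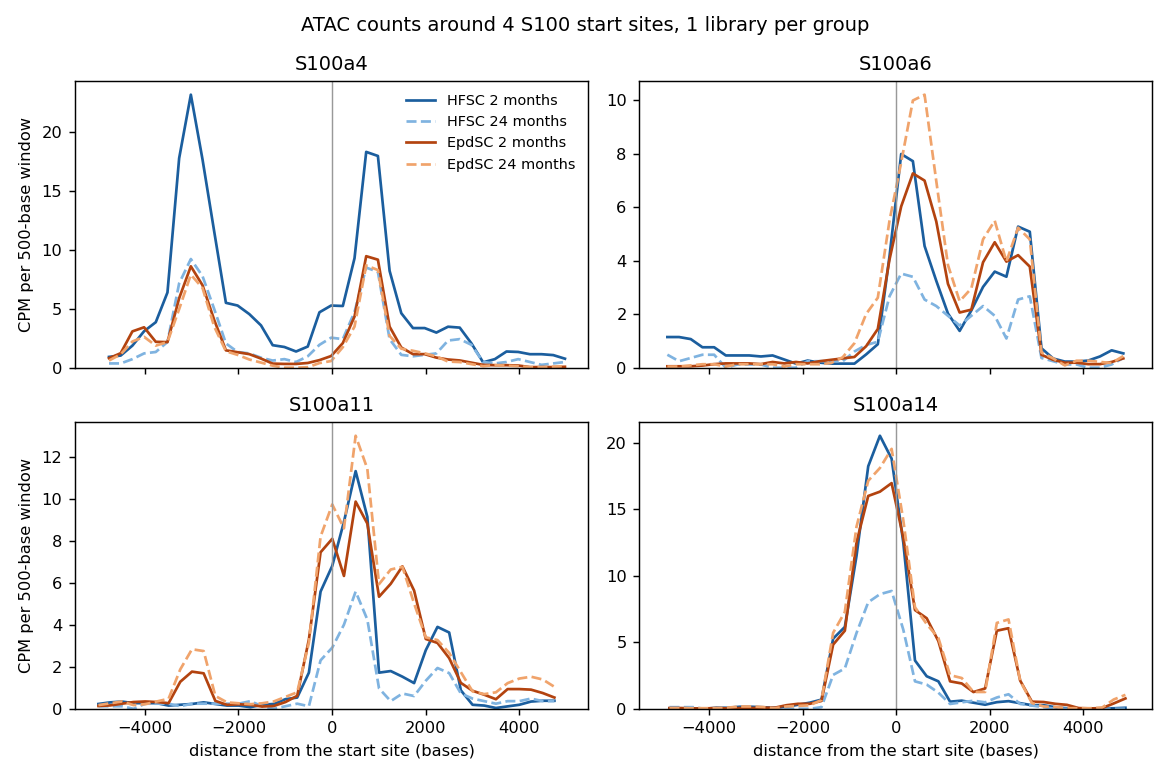
ATAC-seq CPM in windows of 500 bases around the start sites of S100a4, S100a6, S100a11 and S100a14, against distance from the start in bases, with 1 line per library. The S100a4 profile is higher in young HFSC than in EpdSC at the start and at the peaks on either side of it, whereas at the starts of S100a6, S100a11 and S100a14 the young libraries lie close together; aged HFSC runs below young HFSC at the peaks of all 4 genes, and EpdSC has further signal downstream of S100a11 and S100a14.

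In the aged libraries 6 of the 10 member promoters were 2-fold or more higher in EpdSC, where 48.6% of all promoters passed in either direction and 41.6% were higher. After scaling to counts at gene starts, 2 of the 10 were past 2-fold and these were others, both lower in EpdSC: S100a4 (-1.34) and S100a8 (-1.05). Between ages, 6 members were 2-fold lower in aged HFSC, where 26.6% of all promoters passed in either direction and 21.1% were lower. After scaling to counts at gene starts the members ran from -0.72 to 0.94 on the log2 scale, and none was 2-fold apart. In EpdSC 1 member, S100a8, was 2-fold higher in the aged library, where 6.28% passed and 2.30% were higher. This call and the S100a8 ratio of -1.05 rest on few counts. The S100a8 window centred 180 bases past the start held 0.485 CPM in aged HFSC and 0.107 and 0.305 CPM in young and aged EpdSC. For scale, 3 counts make 0.364 CPM in aged HFSC and 0.0804 and 0.131 CPM in young and aged EpdSC. S100a4 was at 34.3 and 16.4 CPM in young and aged HFSC and at 14.9 and 12.4 CPM in young and aged EpdSC. S100a6 was at 17.6 and 24.5 CPM in young and aged EpdSC, a log2 ratio of 0.48, the largest of the members with more than 10 CPM there.

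In single cells S100a4 was concentrated in 1 cluster. After filtering, 4034 young and 4468 aged cells were used (median 3918.5 and 2271 UMIs per cell), and 33 barcodes occurred in both libraries. They formed 22 clusters made without the S100 genes, so that S100 levels did not shape them, and 10 could be named from markers. Cluster 5, led by Cd34, was bulge-like, after the part of the follicle that houses HFSC, with 287 young and 281 aged cells. Several clusters came almost wholly from 1 library, such as cluster 1 (55 young, 1478 aged cells) and cluster 2 (800 young, 66 aged cells), and such a cluster may be that library, not a cell type. With 1 library per age there is no test, and intervals cover counting error only.

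S100a4 was at 32.9 UMIs per 10000 (95% interval 31.7 to 34.2) in young bulge-like cells and 0.362 in all other young cells. In aged cells it was at 7.42 (6.65 to 8.26) in the bulge-like cluster and 0.497 elsewhere. The cluster held 7.11% of young and 6.29% of aged cells but 81.3% and 38.6% of their S100a4 UMIs. The next highest clusters, 0.873 in young and 1.02 in aged cells (cluster 11, led by Aspn and Pthlh), were far lower. At least 1 S100a4 UMI was seen in 85.0% of young and 45.2% of aged bulge-like cells (median 1850.5 UMIs over both ages). In young suprabasal-like cells of cluster 6 (median 5378 UMIs) the share was 10.7%. Cluster 6 had the lowest S100a4 level of the young clusters, 0.200 UMIs per 10000. Shares in other young clusters lay on either side, such as 14.1% in cluster 2 and 6.67% in cluster 10. Thinned to 1000 UMIs per cell, the shares were 77.7% and 35.2% in the bulge-like cluster, leaving out 0 young and 34 aged cells. In young cells of clusters 6 and 11 the thinned shares were 2.62% and 8.91%. Barcodes of at most 50 UMIs, which hold free RNA, carried 2.71 S100a4 UMIs per 10000 in the young and 0.781 in the aged library.

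The aged bulge-like level was 0.225 of the young one, while the sorted HFSC averaged 34.8 and 31.9 CPM at 2 and 24 months. Cd34 was also lower in the aged cluster, at 2.33 against 6.47 UMIs per 10000. Among the cells of the cluster with a Cd34 UMI (208 young, 78 aged), S100a4 was at 37.8 and 10.5 UMIs per 10000. At 2 times the clustering resolution the bulge-like cluster held 244 young and 29 aged cells, with 37.2 and 17.4. How far the make-up of the aged cluster sets its level was not tested. Fibroblast markers were few in the cluster but not absent. Its young cells held 13 Col1a2 and 5 Col1a1 UMIs, of 21 and 9 in the whole young library, and 0 of Col3a1, Dcn, Lum and Pdgfra, beside 2563 of S100a4. Its aged cells held 5 Col1a2, 3 Dcn and 1 Col1a1 UMIs and 0 of the other 3 markers, beside 334 of S100a4.

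**Figure D4:**
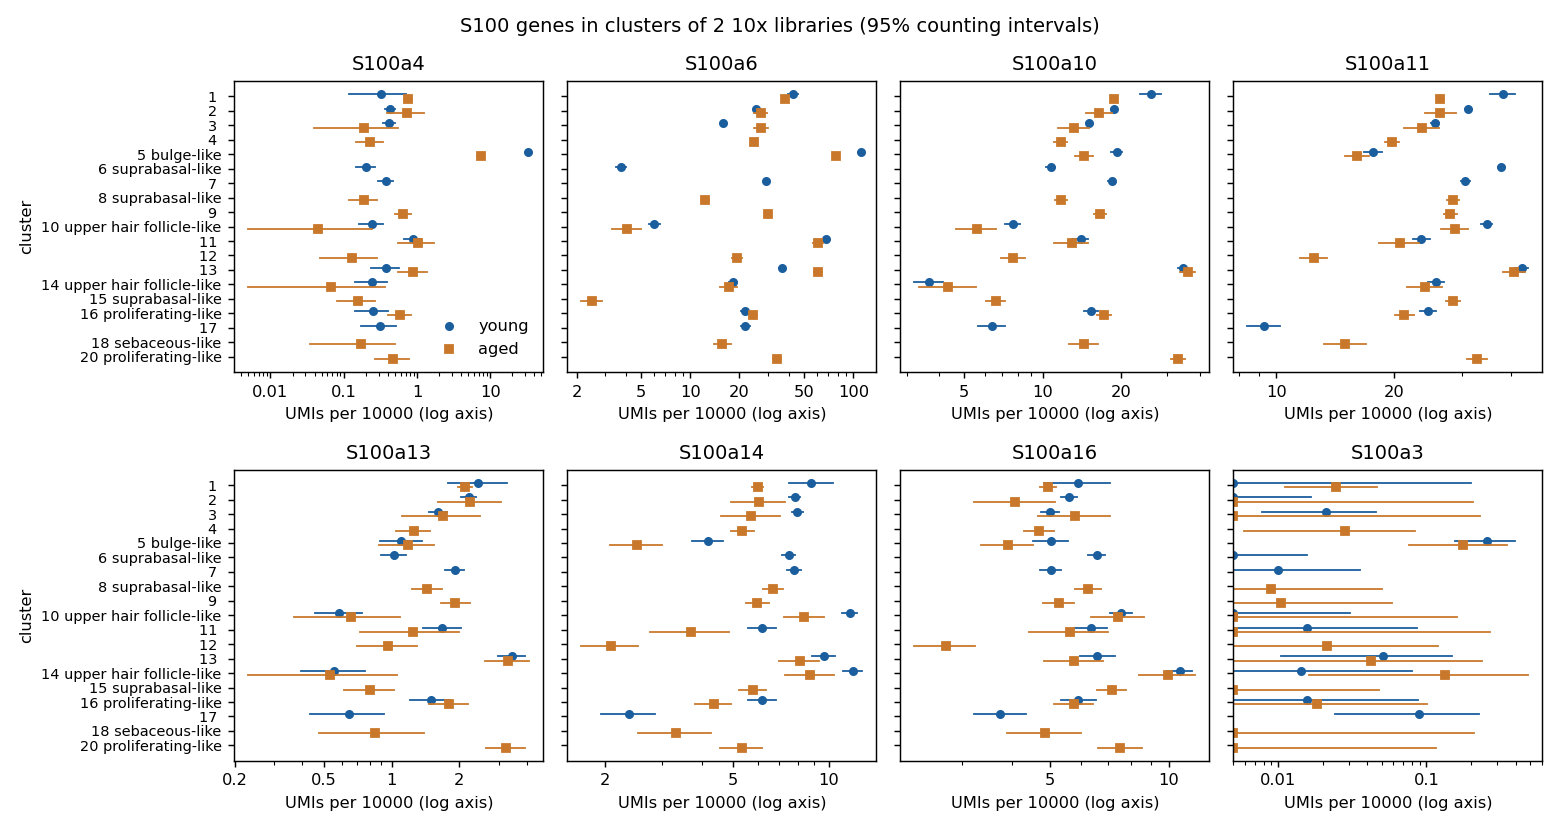
UMIs per 10000 (log axis) of 8 S100 genes in the clusters with at least 50 cells of a library, young as circles and aged as squares, with 95% counting intervals. S100a4 stands out in cluster 5 (bulge-like) at 32.9 young and 7.42 aged, S100a6 peaks in the same cluster, and S100a10, S100a11 and S100a13 peak in cluster 13; levels of 0 in the S100a3 panel are drawn at the left edge.

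S100a6 was also highest in bulge-like cells, at 111 UMIs per 10000 in young and 78.8 in aged, against 20.9 and 27.2 in all other cells. Low-count barcodes carried 26.0 and 31.1, close to those of all other cells. S100a6 followed a wide gradient. The lowest cluster of each library was suprabasal-like (3.74 in cluster 6 of the young, 2.48 in cluster 15 of the aged library), and cluster 11 reached 68.0 in the young. Suprabasal-like cluster 8 was not as low, at 12.3 in aged cells, beside 4.08 in aged cells of upper hair follicle-like cluster 10. S100a3 was rare but highest in the same cluster, with 20 of 39 young and 8 of 28 aged UMIs. S100a1 had 2.27 and 1.73 UMIs per 10000 in bulge-like cells against 0.396 and 0.477 elsewhere. The 3 members that were higher in sorted HFSC, S100a3, S100a4 and S100a6, thus each had their highest level in the Cd34-led cluster at both ages, among clusters of at least 50 cells. For S100a3 in aged cells this rested on 8 UMIs (0.178, interval 0.0767 to 0.350), which overlapped the interval of cluster 14. S100a11 and S100a14 were lower in bulge-like than in all other cells, at 17.7 against 30.2 and 4.18 against 7.99 UMIs per 10000 in the young library.

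S100a10, S100a11 and S100a13 shared a peak in cluster 13, which was led by the mitotic genes Cdkn3, Cenpa and Ccnb2 and could not be named. S100a10 was at 34.4 in young and 35.9 in aged cells there and lowest in cluster 14 (upper hair follicle-like, 3.65 and 4.33 UMIs per 10000). S100a11 was at 42.6 and 40.7 in cluster 13, and S100a13 at 3.41 and 3.28. In aged cells the proliferating-like cluster 20 came next, at 33.0 for S100a10, 32.7 for S100a11 and 3.22 for S100a13. For S100a13 its interval (2.62 to 3.91) overlapped that of cluster 13 (2.59 to 4.10). The other proliferating-like cluster, 16, did not share these levels. S100a10 was at 15.3 and 17.2 in its young and aged cells, beside 15.3 and 15.4 over all cells. S100a11 was at 24.5 and 21.3 there, beside 29.6 and 25.1, and S100a13 at 1.49 and 1.80, beside 1.56 and 1.68. S100a14 and S100a16 had their highest level in cluster 14 instead, at 11.9 and 10.7 in young and 8.73 and 9.93 in aged cells. S100a14 also reached 11.6 in young cells of cluster 10, the other upper hair follicle-like cluster. Within upper hair follicle-like cells, S100a14 and S100a16 were thus high where S100a10 and S100a13 were low.

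Of 9 clusters with at least 50 cells of each library, S100a14 and S100a11 were lower in the aged library in all 9, with aged-to-young ratios of 0.601 to 0.841 and 0.690 to 0.954. In sorted cells S100a14 averaged 120.1 and 119.6 CPM in young and aged HFSC and 318 and 368 CPM in EpdSC. The aged 10x library had fewer UMIs per cell, and the part of depth or library in these ratios was not tested. Free RNA moved the same way, with S100a14 at 11.0 and 8.08 and S100a11 at 29.3 and 24.0 UMIs per 10000 in young and aged low-count barcodes. S100a4 ratios were formed only with more than 3 UMIs in each library, which left 6 clusters. They were above 1 in 5 and below 1 in the bulge-like cluster. Clusters 3, 10 and 14 were left out for few aged UMIs and were also lower in aged cells. S100a4 was at 0.419, 0.241 and 0.242 UMIs per 10000 in their young cells and 0.188, 0.0439 and 0.0667 in their aged cells.

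S100a8 UMIs were concentrated in few cells of the young library. There were 120 UMIs in 37 of 4034 young cells (0.917%), with up to 24 in a cell and 51 in the top 3 cells, and 1 UMI in 4468 aged cells. Of these young cells, 18 lay in cluster 3, which was led by Sostdc1, Vsnl1 and Ntrk2 and held 64 of the UMIs, 7 in cluster 10 and 3 in cluster 13. S100a9 had 2 UMIs in the young and 3 in the aged library, and no cell held both genes. The 10 neutrophil markers had 0 UMIs in the S100a8 cells, but only 6 in the whole young library. Free RNA in the young library carried 0.0766 S100a8 UMIs per 10000, beside 0.225 in cluster 3 and 0.408 in cluster 13.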

How the data were processed

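Per the labels' protocols, RNA libraries were made with a TruSeq kit, ATAC libraries by tagmentation and single-cell libraries with 10x chemistry; the submitters' processing notes name STAR, Bowtie, Cell Ranger and mm10, without versions. The RNA files, the ATAC windows and the 10x matrices hold counts as deposited by the authors; each replicate was a separate file. From these, RNA counts were tested with edgeR 4.0.16 (quasi-likelihood, trimmed-mean factors, default low-count filter, all 8 libraries, Benjamini-Hochberg adjustment, called at adjusted p under 0.05), with DESeq2 1.42.0 as an alternative; the dispersion gave a coefficient of variation of 0.277. The count test was tested on simulated data. Replicate libraries differed from each other beyond sampling noise.

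ATAC windows of 500 bases overlapped by 250, so every other window was used; ratios carry a pseudocount of 0.5 counts and promoters needed 20 counts. Start sites came from the RefSeq promoter table (GRCm38.p6), which held 8 of the 10 members, and for S100a10 and S100a14 from the annotated gene end with more ATAC counts. For a gene with several starts, the start with the highest mean ATAC CPM over the 4 libraries was used. The choice of start thus rests on the same ATAC values.

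10x barcodes needed at least 1049 (young) or 682 (aged) UMIs, 500 genes and at most 10% mitochondrial UMIs. The doublet caller marked 0.0991% and 0.0224% of barcodes and so did not work; doublets remain. Cells were clustered with scanpy 1.11.5 (Leiden, resolution 1).

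The members and gene lists were chosen with earlier results of these data known. The genes named are all members and other S100 genes, up to 4 called genes of each partner list with the smallest p (up to 2 where none was called), sort markers and the genes most like a member (up to 3 each; those of S100a6 are not reported here). Alternatives were another test, scaling or filter, a replicate block, each library left out, other ATAC windows and other cell filters and clusterings. PCR reads are not independent molecules, so ATAC intervals cover counting error only.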

Additional observations from a re-analysis of the deposited data

Results flagged for a closer look

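S100a4 RNA was flagged because the ages did not overlap in either population and differed in opposite directions. Aged libraries were lower than young ones in HFSC and higher in EpdSC. The HFSC difference did not reach an unadjusted p under 0.05 in edgeR. The share of all genes without overlap was not counted, so the flag describes these libraries only. The effect in EpdSC exceeded that in HFSC by 2.88 on the log2 scale (SE 0.59, edgeR adjusted p = 0.251). Its unadjusted p was under 0.05, but it did not pass after adjustment. The S100a4 level averaged 34.8 and 31.9 CPM at 2 and 24 months in HFSC, and 0.158 and 1.08 CPM in EpdSC.

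S100a6 was flagged in the single-cell data because clusters moved in opposite directions between the ages with counting intervals that do not overlap. The aged-to-young ratio of UMIs per 10000 was 0.708 in cluster 5 (bulge-like), and 1.71 in cluster 3 (led by Sostdc1 and Vsnl1), 1.66 in cluster 13 (led by Cdkn3 and Cenpa) and 1.12 in cluster 16 (proliferating-like). With 1 library per age these differences were not tested. Cluster 3 held 796 young but only 63 aged cells. S100a6 in low-count barcodes, which hold free RNA, was at 26.0 UMIs per 10000 in the young and 31.1 in the aged library; the part of free RNA in these ratios was not tested.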

How the results depend on the processing

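Of the recomputed RNA counts of called members, 62 stayed within 1.5 times the reported count and 7 moved. All 7 concern age. The count of members called between aged and young EpdSC went from 0 to 2 (S100a4 and S100a6) with DESeq2 and to 2 with no filter on low counts, and ranged from 0 to 1 when 1 library was left out. The count for the difference between the age effects went from 0 to 1 (S100a4) with DESeq2 and to 1 with no filter, and ranged from 0 to 1 when 1 library was left out. Aged EpdSC replicate 1 was the library whose removal gave the call in each case. The cause of these changes was not tested, and the shares of all genes called under these settings are not reported here. No result reversed. Of the recomputed single-member RNA values 531 kept their side of the threshold, 15 gained a call and 6 lost one.

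With the replicate number as a block, edgeR called 1 member between aged and young EpdSC in place of 0, S100a6 (0.92, adjusted p = 0.0334), and changed no other count. The numbers are not shown to pair the libraries: same-numbered libraries correlated at 0.182 (HFSC, young with aged) and 0.176 (EpdSC, young with aged) but at 0.0232 and 0.000935 between the populations.

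The count of aged member promoters 2-fold apart in ATAC-seq went from 6, all higher in EpdSC, to 2 when libraries were scaled to their counts at gene starts, S100a4 and S100a8, both lower in EpdSC and neither among the 6; with windows within 500 bases it was 5. Of single-member values, 21 of the ATAC ones moved and 99 did not, and 19 of the 10x ones moved and 93 did not. The 10x count of members higher in bulge-like than in other cells was 4 in young and 3 or 4 in aged cells under all alternatives run, of which leaving out barcodes with over 3 times the median UMIs and keeping only bulge-like cells with a Cd34 UMI were chosen after seeing the data. S100a4 in aged bulge-like cells ranged from 7.19 to 17.4 UMIs per 10000. Depth limits S100a8, S100a9 and S100a3, which had few counts.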
